A study of Mus musculus with 36 samples.

Results

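The data were the libraries of mouse fibroblast-like chondrocytes depleted of Ift88 and exposed to IL-1b, taken at 4 h of the cytokine. The 2 groups were chosen by their sample labels alone. They were 3 libraries of cells transfected with a pool of siRNAs against Ift88 (IFT88siRNA) and 3 of cells transfected with a non-targeting siRNA pool (NT), 6 of the 36 libraries of the series. Both groups were the same conditionally immortalised mouse chondrocyte line after release from immortalisation, so all values describe 1 line, and both received 10 ng/ml IL-1b for 4 h. The other 30 libraries carried the same siRNA pools at 0, 1, 2, 8 and 24 h, where 0 h was medium without IL-1b. The labels do not say that replicates came from separate cultures, so the p-values measure the spread between these libraries, which may be technical.

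IFT88 is a core subunit of the IFT-B complex, the protein train that carries cargo along the axoneme of the primary cilium. IL-1b binds a receptor that signals through IRAK kinases to the IKK complex and to the MAP kinases. NF-kB and AP-1 dimers then enter the nucleus and switch on chemokines, cytokines, adhesion molecules and, in cartilage cells, matrix-degrading enzymes, together with inhibitors such as A20 that end the response.

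The 6 libraries held between 19599461 and 25616856 counts. On the first principal component of log2 CPM, which carried 40.1% of the variance, IFT88siRNA replicate 2 stood apart at -29.4 while the other 5 libraries lay between -7.19 and 15.2. Its level of the nuclear RNA Neat1 was 95.1 CPM against 165 to 209 CPM elsewhere. Results that rest on this library are therefore given with and without it. All 8 fibroblast markers were present, with a summed level of 3313 to 3533 TPM in NT and 3339 to 3549 TPM in IFT88siRNA cells. Only 5 of 8 chondrocyte markers exceeded 1 TPM. Acan, Col9a1 and Matn1, which define cartilage, were at or below 0.167 TPM in every library. The 5 above 1 TPM were Sox9, Comp, Hapln1, Col2a1 and Col11a2. The chondrocyte label is the study's own for this line and was not derived from these levels. Of 8 macrophage markers 4 exceeded 1 TPM (summed 37.2 to 41.8 TPM in NT, 37.5 to 41.1 TPM in IFT88siRNA cells), while Ptprc, Adgre1 and Tyrobp were at or near 0. No endothelial or muscle marker averaged 1 TPM, and of the 4 adipocyte and 4 epithelial markers only Pparg, Cdh1 and Krt18 did. The smooth muscle gene Myh11 was sparse, at 2.44, 2.11 and 2.45 CPM in the NT libraries. It had 1.16, 1.04 and 1.51 CPM in the IFT88siRNA libraries and was called lower. Without IFT88siRNA replicate 2 it was not called (log2 fold change -0.78, adjusted p = 0.062).

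Ift88 itself (mouse GRCm38 chr14:57424062-57517936, plus strand) stood at 5.83, 7.39 and 6.64 CPM in the NT libraries and 2.04, 1.43 and 2.1 CPM in the IFT88siRNA libraries. The groups did not overlap, and the IFT88siRNA mean was 28.1% of the NT mean (log2 fold change -1.83, SE 0.17, adjusted p = 1.7e-05). Here and below, levels are CPM (counts divided by the library's total, on a common scale) with TMM scaling over all 36 libraries, and adjusted p-values come from edgeR's quasi-likelihood F-test with Benjamini-Hochberg adjustment over all 14801 genes tested at 4 h. Ift88 was also lower at every other time, with log2 fold changes of -1.71 at 0 h, -1.74 at 1 h, -2.12 at 2 h, -1.76 at 8 h and -1.47 at 24 h. No other member of the IFT-B complex passed the test among 17 tested. Ift57, the one with the smallest p after Ift88, had 38.5, 36.7 and 35.9 CPM (NT) and 31.8, 35.01 and 31.8 CPM (IFT88siRNA) (-0.18, adjusted p = 0.12). None of 21 genes of the IFT-A complex, the BBSome and the ciliary motors passed it either. Dync2h1, the heavy chain of the retrograde motor, had a log2 fold change of -0.20 (adjusted p = 0.22).

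The question of the comparison was which transcripts differ between depleted and control cells once IL-1b has acted for 4 h. A gene was called when its adjusted p was below 0.05 and its fold change above 1.5, the thresholds the study used. By this rule 64 genes differed, 0.432% of those tested. The difference was mostly in one direction: 59 genes were lower in IFT88siRNA cells (0.399% of those tested) and 5 were higher (0.0338%). With the adjusted p alone, 570 genes passed (3.85%), 352 of them lower (2.38%) and 218 higher (1.47%). The groups did not overlap for 62 of the 64 called genes, Hist1h1d and Efr3b being the exceptions, and for 3254 of all 14801 genes. The median log2 fold change over all genes tested was -0.0014. In bulk RNA, fewer cells making a transcript and less of it per cell cannot be told apart. Without IFT88siRNA replicate 2 the test called 69 genes, of which 49 were among the 64. The count was 23 without IFT88siRNA replicate 1, 140 without IFT88siRNA replicate 3 and 36 without NT replicate 3, and DESeq2 on all 6 libraries called 34 genes, each of them among the 64.

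**Figure D1:**
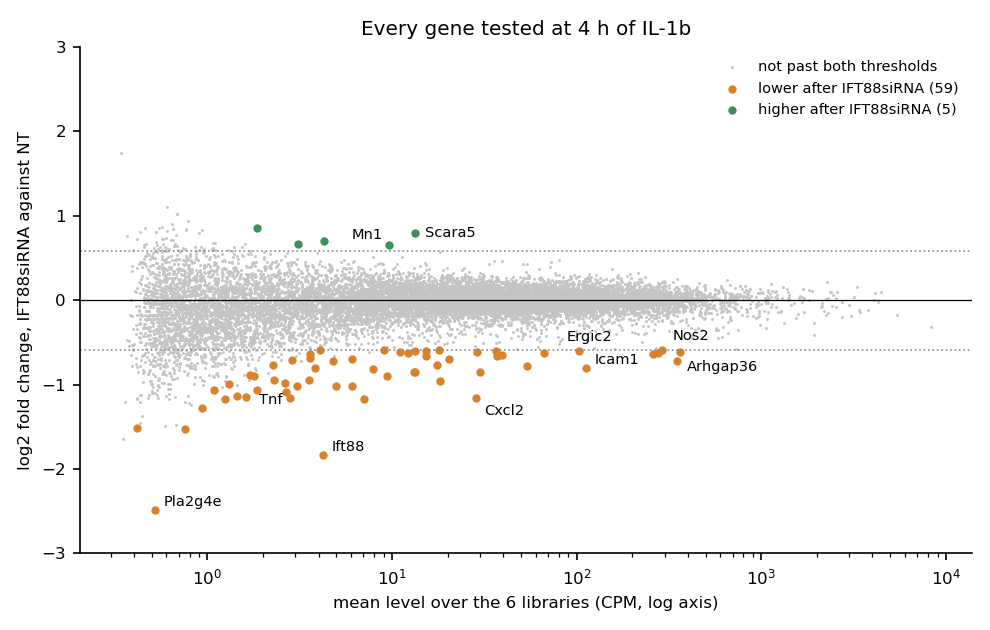
Mean level over the 6 libraries (CPM, log axis) against the log2 fold change of IFT88siRNA over NT at 4 h for each gene tested. Grey points did not pass both thresholds, 59 orange points were lower and 5 green points higher, and dotted lines mark the 1.5-fold threshold; the called genes lie mostly below the lower line, with Ift88 at -1.83 and the sparsely counted Pla2g4e at -2.49.

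Of the chemokines, Cxcl2, Cxcl3 and Ccl20 were called, all lower. Cxcl2, a ligand of the receptor CXCR2, stood at 40.2, 35.1 and 42.5 CPM in the NT libraries and 15.7, 17.4 and 19.7 CPM in the IFT88siRNA libraries (log2 fold change -1.16, SE 0.09, adjusted p = 3.9e-06). Its neighbour Cxcl3, a ligand of the same receptor, was also lower in each depleted library, at 24.8, 20.4 and 26.9 CPM in the NT libraries and 10.7, 12.3 and 14.2 CPM in the IFT88siRNA libraries (log2 fold change -0.95, SE 0.11, adjusted p = 1.3e-04). Both were close to undetected without IL-1b, at 0.0289 ± 0.025 and 0.212 ± 0.219 CPM (mean ± SD, n = 3) in NT cells at 0 h. Cxcl1, the third of these CXCR2 ligands, passed the adjusted p but not the fold threshold, at 637, 688 and 682 CPM (NT) and 463, 521 and 491 CPM (IFT88siRNA) (log2 fold change -0.45, SE 0.05, adjusted p = 1.1e-04). Cxcl5 (-0.35, adjusted p = 0.0035) and the interferon-responsive Cxcl11 (-0.43, adjusted p = 0.0044) likewise fell by less than 1.5-fold. In all, 5 of 10 CXC chemokines tested were lower by the adjusted p and none higher, and the list median was -0.37. At 0 h the median was 0.06 over the members that could be tested there. Over all genes tested, 2.38% were lower by the adjusted p and 1.47% higher, the shares to set beside this and later lists. Cxcl1, Cxcl2 and Cxcl3 are close paralogs, and default counting leaves out reads that align to several places, so their levels are less certain.

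Ccl20, which draws cells bearing CCR6, was the only called member of 8 CC chemokines and fractalkine. It stood at 64.6, 65.2 and 74.6 CPM in the NT libraries and 32.4, 46.5 and 40.9 CPM in the IFT88siRNA libraries. The lowest NT library lay above the highest depleted one (log2 fold change -0.78, SE 0.09, adjusted p = 1.4e-04). Ccl2, the monocyte chemoattractant, fell by less than 1.5-fold (-0.21, adjusted p = 0.032), as did Ccl9 (-0.34, adjusted p = 0.027), and the list median was -0.24.

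The sequences before the starts of some of these genes are shown because they hold an NF-kB match. Most lower genes with a window held none. RefSeq promoter windows on GRCm38.p6 ran from 250 bases before to 50 bases after the start and were found for 41 of the 59 lower genes and 2 of the 5 higher ones. The NF-kB consensus matched on either strand in 9 of those 41 windows (21.95%), against 5.136% of 27025 genes with a window and 6.565% of the 10327 tested ones. The 9 genes were Ccl20, Cxcl2, Cxcl3, Egr4, Fos, Il6, Lamb3, Nlrp3 and Tnfaip3. All 9 were among the 26 lower genes with a window that IL-1b raised in NT cells at 2 h or 8 h (34.62%). The share among all genes that IL-1b raised was not taken, so the excess cannot be tied to depletion. The AP-1 motif TGANTCA, also read on both strands, matched in 7 of the 41 windows (17.07%), against 8.973% of all and 6.575% of tested genes. The CArG box, the site of serum response factor, matched in 0 of the 41 and in 1.806% of all genes. Neither NF-kB nor AP-1 letters occurred in the windows of the 2 higher genes. A match is a description of the letters and not evidence of binding. Each sequence below is the 150 bases before the start, read 5′ to 3′ along the gene's strand, with NF-kB matches in capitals: Cxcl2 (chr5:90903749-90903898, plus strand), Cxcl3 (chr5:90785951-90786100, plus), Ccl20 (chr1:83116616-83116765, plus), Il6 (chr5:30012964-30013113, plus) and Tnfaip3 (chr10:19015411-19015560, minus).
Cxcl2: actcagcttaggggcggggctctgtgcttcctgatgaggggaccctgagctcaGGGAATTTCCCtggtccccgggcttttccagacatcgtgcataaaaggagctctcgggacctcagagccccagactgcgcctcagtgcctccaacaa
Cxcl3: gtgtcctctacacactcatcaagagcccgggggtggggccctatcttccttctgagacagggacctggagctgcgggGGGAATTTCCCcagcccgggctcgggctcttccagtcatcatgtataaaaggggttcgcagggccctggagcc
Ccl20: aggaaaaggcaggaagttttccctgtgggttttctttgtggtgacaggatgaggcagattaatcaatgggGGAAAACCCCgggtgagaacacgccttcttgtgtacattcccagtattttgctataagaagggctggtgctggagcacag
Il6: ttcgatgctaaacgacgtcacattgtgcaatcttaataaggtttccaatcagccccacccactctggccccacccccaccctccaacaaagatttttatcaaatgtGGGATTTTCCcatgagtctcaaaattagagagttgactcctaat
Tnfaip3: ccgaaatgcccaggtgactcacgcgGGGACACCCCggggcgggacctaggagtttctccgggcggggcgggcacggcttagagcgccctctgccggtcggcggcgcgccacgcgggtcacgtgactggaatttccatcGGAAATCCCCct

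Among cytokines and colony-stimulating factors, 3 of 14 tested were called, all lower. Tnf, the inflammatory cytokine TNF, was sparse, at 3.68, 3.31 and 5.26 CPM in the NT libraries and 1.95, 1.73 and 2.35 CPM in the IFT88siRNA libraries (log2 fold change -1.01, SE 0.21, adjusted p = 0.011). Il6, the acute-phase cytokine with NF-kB letters in its printed window, stood at 77.4, 83.7 and 82.3 CPM in the NT libraries and 54.2, 49.3 and 54.7 CPM in the IFT88siRNA libraries (log2 fold change -0.63, SE 0.06, adjusted p = 1.4e-05). Without IFT88siRNA replicate 2 its log2 fold change was -0.57 (adjusted p = 2.4e-08), below the fold threshold. Csf3, the granulocyte colony-stimulating factor, had 13.9, 16.3 and 18.1 CPM in the NT libraries and 10.2, 11.1 and 10.8 CPM in the IFT88siRNA libraries (log2 fold change -0.60, SE 0.10, adjusted p = 0.0032). In none of the 3 genes did the groups overlap. Lif (-0.33, adjusted p = 0.0050), Il15 (-0.40, adjusted p = 0.0049) and Tslp (-0.39, adjusted p = 0.0068) passed the adjusted p alone, Il11 missed it (-0.56, adjusted p = 0.053), and no member was higher. The list median was -0.39.

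**Figure D2:**
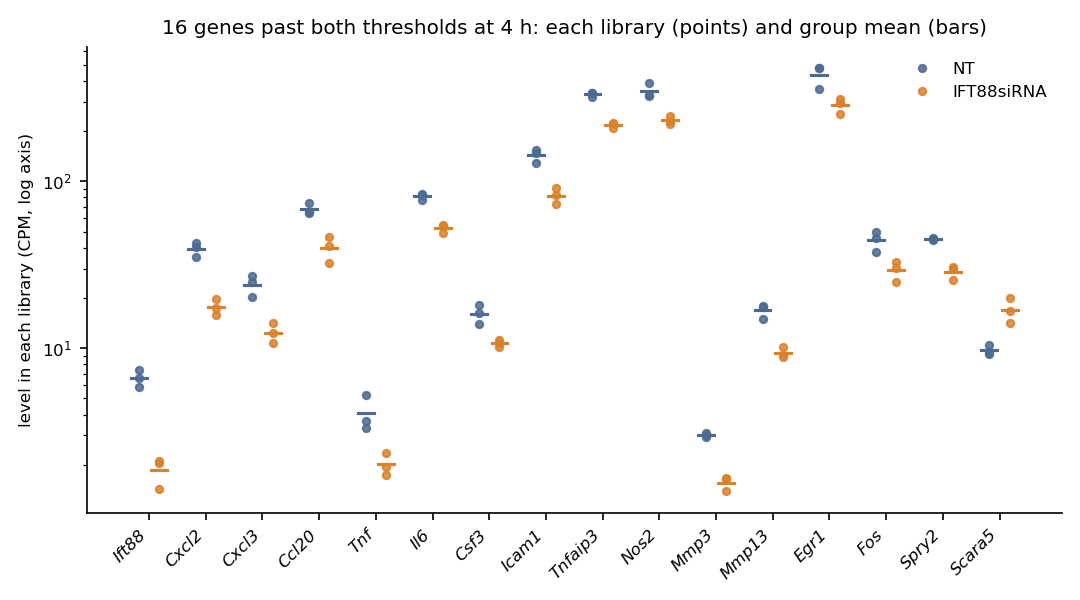
Level in each library (CPM, log axis) of 16 called genes at 4 h; points are libraries (blue NT, orange IFT88siRNA) and short lines group means. The 3 depleted libraries lie below the 3 NT libraries for each gene but Scara5, where they lie above.

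The receptors and proximal transducers of IL-1 had a median of -0.05 over 14 genes, and none passed both thresholds. Il1rl1, the IL-33 receptor ST2, came closest, at 922, 848 and 841 CPM in the NT libraries and 571, 589 and 589.9 CPM in the IFT88siRNA libraries (log2 fold change -0.58, SE 0.05, adjusted p = 3.9e-06). It had already differed before IL-1b, with 46.8 ± 3.79 CPM in NT and 20.7 ± 2.03 CPM in IFT88siRNA cells at 0 h. Il1rap, the accessory chain that both the IL-1 and the IL-33 receptor need, stood at 275, 268 and 246 CPM in the NT libraries and 183, 212 and 203 CPM in the IFT88siRNA libraries (log2 fold change -0.41, SE 0.06, adjusted p = 4.8e-04). Irak1 was the third gene lower by the adjusted p (-0.19, adjusted p = 0.041).

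All 8 genes of NF-kB subunits and IKK had log2 fold changes below 0, 4 of them by the adjusted p and none past 1.5-fold. Rela, which encodes the p65 subunit, was the clearest, at 261, 253 and 276 CPM in the NT libraries and 179.7, 196 and 186 CPM in the IFT88siRNA libraries (log2 fold change -0.50, SE 0.05, adjusted p = 2.0e-05). Rel (-0.33, adjusted p = 0.0015), Relb (-0.25, adjusted p = 0.016) and Nfkb2 (-0.21, adjusted p = 0.035) moved less. Of 17 inhibitors and feedback genes, Tnfaip3, which encodes the ubiquitin-editing enzyme A20, was called. It stood at 339, 321 and 338 CPM in the NT libraries and 209, 223 and 219 CPM in the IFT88siRNA libraries (log2 fold change -0.62, SE 0.05, adjusted p = 3.9e-06), and it was the 1 gene of the 64 that kept its call under every alternative that tested it. Nfkbiz (-0.33, adjusted p = 9.8e-04) and Nfkbie (-0.35, adjusted p = 0.0097) were lower by the adjusted p alone. The medians of both lists were -0.15.

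Enzymes that make nitric oxide and prostaglandins included Nos2, the inducible nitric oxide synthase, at 329, 324 and 390.4 CPM in the NT libraries and 220.1, 229 and 247 CPM in the IFT88siRNA libraries (log2 fold change -0.59, SE 0.07, adjusted p = 1.1e-04). Without IFT88siRNA replicate 2 its log2 fold change was -0.57 (adjusted p = 1.6e-07), just short of 1.5-fold. Ptgs2, the inducible cyclooxygenase COX2, had 795, 879 and 839 CPM in the NT libraries and 698, 616 and 665 CPM in the IFT88siRNA libraries (log2 fold change -0.35, SE 0.06, adjusted p = 0.0025), a smaller fall. Ptges, the microsomal prostaglandin E synthase, fell by 0.56 on the log2 scale (adjusted p = 0.0045), Ptgs1 by 0.27 (adjusted p = 0.016) and the arginine carrier Slc7a2 by 0.32 (adjusted p = 0.0015). With the prostaglandin receptor Ptger4, 6 of 11 were lower by the adjusted p, none was higher, and the median was -0.27.

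Icam1, the endothelial and stromal ligand of leukocyte integrins, was the 1 called adhesion molecule of 9 tested. It stood at 147, 129 and 154 CPM in the NT libraries and 72.9, 90.7 and 82.8 CPM in the IFT88siRNA libraries (log2 fold change -0.81, SE 0.07, adjusted p = 8.5e-06), so the highest depleted library lay below the lowest NT library. Vcam1, the ligand of integrin VLA-4, passed the adjusted p but fell by less than 1.5-fold, at 731, 688 and 699.7 CPM in the NT libraries and 486, 564 and 522 CPM in the IFT88siRNA libraries (log2 fold change -0.44, SE 0.05, adjusted p = 1.3e-04). Itgav and Cd44 passed the adjusted p with still smaller falls, of 0.23 and 0.18 on the log2 scale, and the list median was -0.18.

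Among 18 metalloproteinases and their inhibitors, both called genes encode enzymes that degrade cartilage. Mmp13, the collagenase that cleaves type II collagen, stood at 17.8, 15.01 and 17.6 CPM in the NT libraries and 8.85, 9.05 and 10.2 CPM in the IFT88siRNA libraries (log2 fold change -0.85, SE 0.10, adjusted p = 1.2e-04). Mmp3, stromelysin 1, which activates procollagenases, had 3.12, 2.94 and 3.03 CPM in the NT libraries and 1.67, 1.38 and 1.64 CPM in the IFT88siRNA libraries (log2 fold change -0.95, SE 0.19, adjusted p = 0.0094). The aggrecanase-family gene Adamts1 (-0.36, adjusted p = 0.0010) and the inhibitor Timp1 (-0.20, adjusted p = 0.033) passed the adjusted p alone, and the median of the list was -0.09. The windows of both called genes held an AP-1 match close to the start, in capitals in the 150 bases before it: Mmp13 (chr9:7272364-7272513, plus strand) and Mmp3 (chr9:7445672-7445821, plus strand).
Mmp13: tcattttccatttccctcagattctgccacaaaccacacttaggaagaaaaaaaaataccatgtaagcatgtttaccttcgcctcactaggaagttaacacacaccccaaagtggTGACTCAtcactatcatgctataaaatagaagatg
Mmp3: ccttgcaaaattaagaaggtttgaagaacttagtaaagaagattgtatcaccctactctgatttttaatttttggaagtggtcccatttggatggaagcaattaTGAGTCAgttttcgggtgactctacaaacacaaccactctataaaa

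In the matrix list, 3 of 26 genes were called, all lower. Col10a1, the collagen of hypertrophic cartilage, stood at 21.8, 22.4 and 21.8 CPM in the NT libraries and 13.5, 13.4 and 12.2 CPM in the IFT88siRNA libraries (log2 fold change -0.77, SE 0.08, adjusted p = 2.8e-05). It overlaps Nt5dc1 on the other strand, and the counting, run with default parameters, did not use strand. Cilp2, a cartilage intermediate layer protein, had 50.98, 37.6 and 56.4 CPM in the NT libraries and 31.9, 32.2 and 28.7 CPM in the IFT88siRNA libraries (log2 fold change -0.65, SE 0.11, adjusted p = 0.0025). Col2a1, the main collagen of hyaline cartilage, had 10.3, 10.7 and 11.6 CPM in the NT libraries and 6.63, 6.58 and 8.45 CPM in the IFT88siRNA libraries (log2 fold change -0.59, SE 0.12, adjusted p = 0.010). Without IFT88siRNA replicate 2 its log2 fold change was -0.51 (adjusted p = 0.0079), below the fold threshold. Col2a1 was already lower at 0 h, at 19.8 CPM in NT and 11.7 CPM in IFT88siRNA cells (-0.76, adjusted p = 3.5e-07). Fn1 (-0.32, adjusted p = 0.0078), Col11a1 (-0.23, adjusted p = 0.035) and Col1a1 (-0.20, adjusted p = 0.016) passed the adjusted p alone. The list median was -0.14, and 0.07 at 0 h. Sox9, the transcription factor that drives Col2a1, had 23.6, 24.7 and 21.8 CPM (NT) and 33.05, 25.9 and 26.3 CPM (IFT88siRNA) (0.28, adjusted p = 0.11) and did not pass, nor did any other of 8 Sox and Runx factors (median -0.07). With IFT88siRNA replicate 2 left out, Sox9 passed the adjusted p at 0.34 (adjusted p = 0.011) and Sox5, a partner of Sox9 in cartilage, passed both thresholds at -0.87 (adjusted p = 0.043).

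Among early response genes 2 were called, both lower. Egr1, a zinc finger factor induced through ERK and serum response factor, stood at 476, 355 and 477 CPM in the NT libraries and 252, 295 and 311 CPM in the IFT88siRNA libraries (log2 fold change -0.61, SE 0.09, adjusted p = 0.0010). Fos, the AP-1 subunit, had 45.4, 37.9 and 49.4 CPM in the NT libraries and 24.9, 32.7 and 30.1 CPM in the IFT88siRNA libraries (log2 fold change -0.60, SE 0.10, adjusted p = 0.0018). Atf3, Egr2, Egr3, Nr4a1, Ier3 and Fosl1 passed the adjusted p alone, so that 8 of 18 in the list were lower and none higher (median -0.22). The median of this list was already below 0 before IL-1b (-0.31). Jun, the partner of Fos, had a log2 fold change of -0.09 (adjusted p = 0.38). Outside the list, Egr4 had 2.95, 2.94 and 4.68 CPM (NT) and 1.16, 1.98 and 2.19 CPM (IFT88siRNA) (log2 fold change -0.98, SE 0.25, adjusted p = 0.034). Egr1 and Fos were also lower at 0 h, with log2 fold changes of -0.51 and -0.50, but not at 1 h (-0.01 and 0.03). Spry2, an inhibitor of receptor tyrosine kinase signalling to ERK, was the 1 gene past either threshold among 14 MAPK phosphatases and Sprouty genes (median -0.04). It stood at 45.6, 45.2 and 44.2 CPM in the NT libraries and 25.5, 30.5 and 29.9 CPM in the IFT88siRNA libraries (log2 fold change -0.66, SE 0.07, adjusted p = 3.2e-05).

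Of 25 growth factors 6 were lower by the adjusted p and none higher (median -0.12, and -0.15 at 0 h). Hgf, hepatocyte growth factor, was called at 4.47, 4.09 and 4.57 CPM in the NT libraries and 2.5, 2.47 and 3.41 CPM in the IFT88siRNA libraries (log2 fold change -0.64, SE 0.17, adjusted p = 0.043), but not without IFT88siRNA replicate 2, where the value was -0.55 (adjusted p = 0.073). Ereg, the EGF receptor ligand epiregulin, missed the fold threshold narrowly at 863, 899.5 and 860.2 CPM in the NT libraries and 535, 643 and 585 CPM in the IFT88siRNA libraries (log2 fold change -0.58, SE 0.06, adjusted p = 1.8e-05), and passed both thresholds without IFT88siRNA replicate 2, at -0.64 (adjusted p = 8.6e-11). Inhba (-0.41, adjusted p = 2.0e-04), Fgf2 (-0.36, adjusted p = 4.8e-04), Gdf15 (-0.56, adjusted p = 0.0041) and Hbegf (-0.27, adjusted p = 0.0076) also fell by the adjusted p.

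In the other lists no gene passed both thresholds in the lower direction, with the exception of histones. By the adjusted p alone, 2.38% of all genes tested were lower. Of 33 interferon-stimulated genes 8 were lower by the adjusted p, Gbp5 (-0.40, adjusted p = 3.2e-04), Mx1 (-0.37, adjusted p = 0.0053) and Mx2 (-0.35, adjusted p = 0.0056) having the largest falls (median -0.10). Of 18 ATF4 and ER stress genes 4 were lower (median -0.11, and -0.23 at 0 h). Among these 4 were the cystine carrier Slc7a11 (-0.50, adjusted p = 0.0046) and the serine synthesis enzyme Phgdh (-0.38, adjusted p = 3.2e-04). Of 20 cholesterol synthesis genes 3 were lower (median -0.11). Of 27 cell cycle genes only Cenpe passed the adjusted p (-0.19, adjusted p = 0.031), near the share over all genes, and the median was 0.03. In the Hedgehog pathway, which signals through the primary cilium, 1 of 10 genes was lower by the adjusted p, the co-receptor Boc, at 71.7, 72.1 and 75.4 CPM in the NT libraries and 43.5, 55.1 and 51.9 CPM in the IFT88siRNA libraries (log2 fold change -0.55, SE 0.07, adjusted p = 1.9e-04). Without IFT88siRNA replicate 2, Boc passed both thresholds (-0.61 (adjusted p = 7.9e-08)). The medians of the Hedgehog (0.012) and IFT-B (0.00021) lists were too near 0 to give a direction and changed sign when that library was left out. At 0 h the Hedgehog median was 0.33.

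Clustered histone genes had the lowest median of the 23 lists plotted here, -0.60 over 23 genes, and 22 of them had a value below 0. Hist1h2bg and Hist1h1d were called, and without IFT88siRNA replicate 2 also Hist1h2be, at -0.73 (adjusted p = 0.024). Hist1h2bg stood at 2.27, 1.15 and 1.81 CPM in the NT libraries and 0.556, 0.692 and 1.01 CPM in the IFT88siRNA libraries (log2 fold change -1.17, SE 0.31, adjusted p = 0.046), and Hist1h1d at 5.15, 3.4 and 5.47 CPM in the NT libraries and 1.48, 2.27 and 3.41 CPM in the IFT88siRNA libraries (log2 fold change -0.95, SE 0.24, adjusted p = 0.041), where the groups overlapped. Hist1h1c, the most counted member, was the third past the adjusted p, at 56.9, 47.7 and 61.02 CPM in the NT libraries and 36.4, 44.3 and 43.4 CPM in the IFT88siRNA libraries (log2 fold change -0.42, SE 0.08, adjusted p = 0.010). These transcripts mostly lack a poly(A) tail and the libraries were poly(A)-selected, and the genes are near-identical copies, so their levels are uncertain. The median of the list was also below 0 before IL-1b (-0.38).

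Complement and acute phase genes had a median above 0, of 0.13 over 15 genes, and of 0.36 at 0 h. Scara5, a ferritin receptor of stromal cells, was the 1 called gene, at 10.4, 9.18 and 9.46 CPM in the NT libraries and 16.6, 19.98 and 14.2 CPM in the IFT88siRNA libraries (log2 fold change 0.80, SE 0.11, adjusted p = 6.4e-04). C1s1, a protease of the classical complement pathway, passed the adjusted p alone (0.22, adjusted p = 0.019). None of the 15 was lower by the adjusted p.

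**Figure D3:**
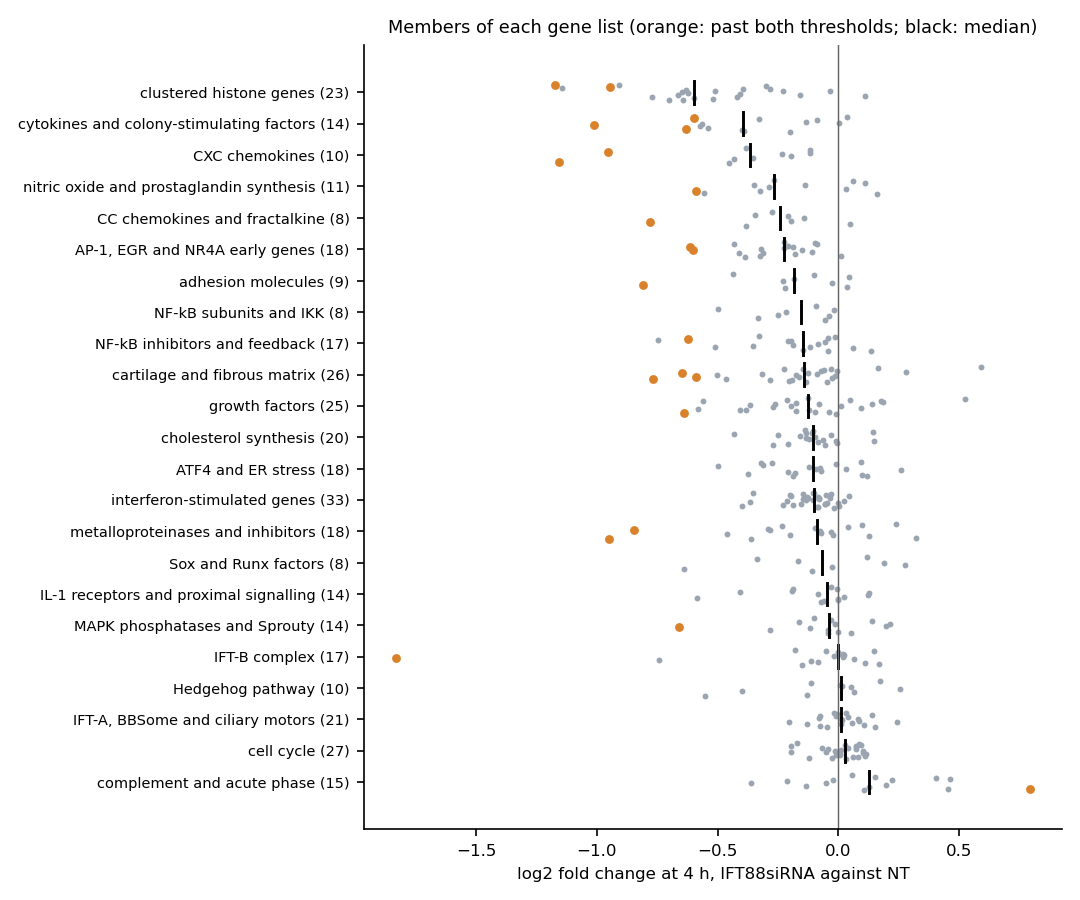
Log2 fold change of IFT88siRNA over NT at 4 h for the members of 23 gene lists, with the number tested in brackets; each point is a gene, orange points passed both thresholds and black lines are list medians. The medians run from -0.60 for clustered histones to 0.13 for complement, against -0.0014 for all genes.

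The study itself named 34 genes that could be tested here, of which 13 were called lower and 1 higher, with a median of -0.53. They were picked on these same libraries and are no independent evidence of a direction.

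The largest falls among well-counted genes also included genes that were in none of the lists. Pbx4, a homeobox cofactor, stood at 10.99, 7.99 and 10.4 CPM in the NT libraries and 3.24, 5.69 and 4.16 CPM in the IFT88siRNA libraries (log2 fold change -1.17, SE 0.17, adjusted p = 6.8e-04). Gpr84, a receptor for medium-chain fatty acids found on myeloid cells, had 3.34, 3.26 and 4.25 CPM (NT) and 1.44, 1.78 and 1.89 CPM (IFT88siRNA) (log2 fold change -1.09, SE 0.19, adjusted p = 0.0046). Pappa2, a protease of IGF-binding proteins, had 7.08, 8.72 and 8.45 CPM (NT) and 3.38, 4.65 and 4.04 CPM (IFT88siRNA) (log2 fold change -1.02, SE 0.14, adjusted p = 5.1e-04). Eln, which encodes elastin, had 13.3, 12.5 and 10.6 CPM (NT) and 6.12, 7.91 and 5.68 CPM (IFT88siRNA) (log2 fold change -0.90, SE 0.13, adjusted p = 5.8e-04). The depleted libraries lay below every NT library in each of these genes. Col20a1, a fibril-associated collagen, had 6.0, 7.85 and 6.22 CPM (NT) and 2.97, 2.47 and 4.46 CPM (IFT88siRNA) (log2 fold change -1.02, SE 0.19, adjusted p = 0.0060) but overlaps the more strongly counted BX649560.1 on the same strand. Igsf1, an immunoglobulin superfamily membrane protein, had 18.4, 15.2 and 17.7 CPM (NT) and 7.79, 11.2 and 9.42 CPM (IFT88siRNA) (log2 fold change -0.86, SE 0.11, adjusted p = 4.4e-04). Gm42462 (-1.16, adjusted p = 0.0061) overlaps the span of the far more strongly counted Fbxl5 on the same strand, so its reads may include that gene's. Pla2g4e had the largest fold change of all called genes (-2.49, adjusted p = 0.0045) on a mean of only 10.2 counts. By their change in NT cells at 2 h or 8 h, IL-1b raised Pbx4, Gpr84 and Gm42462 and lowered Pappa2. Eln was raised at 1 of these times and lowered at the other, and Col20a1 and Igsf1 did neither.

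Some called genes with high counts had among the smallest errors. These 3 were singled out after their values were seen. Arhgap36, which activates GLI factors by blocking protein kinase A, stood at 461, 416 and 420.1 CPM in the NT libraries and 240.5, 287 and 264 CPM in the IFT88siRNA libraries (log2 fold change -0.72, SE 0.06, adjusted p = 3.9e-06). Colec12, a scavenger receptor, had 315, 325 and 301 CPM (NT) and 188, 223 and 195 CPM (IFT88siRNA) (log2 fold change -0.64, SE 0.06, adjusted p = 8.1e-06). Ergic2, a carrier protein of the ER-Golgi intermediate compartment, had 123, 126 and 124 CPM (NT) and 77.1, 83.7 and 84.7 CPM (IFT88siRNA) (log2 fold change -0.61, SE 0.05, adjusted p = 3.9e-06). Ergic2 was lower at every time, with log2 fold changes of -0.65 at 0 h, -0.70 at 1 h, -0.61 at 2 h, -0.66 at 8 h and -0.54 at 24 h.

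Beside Scara5, 4 genes were called higher in IFT88siRNA than in NT cells. Mn1, a transcriptional coregulator of mesenchymal development, had 7.76, 7.94 and 6.75 CPM (NT) and 12.8, 11.1 and 11.6 CPM (IFT88siRNA) (log2 fold change 0.65, SE 0.11, adjusted p = 0.0025). Gdpd2, a phosphodiesterase of glycerophospholipids, had 3.17, 3.31 and 3.24 CPM (NT) and 5.84, 4.3 and 5.68 CPM (IFT88siRNA) (log2 fold change 0.70, SE 0.16, adjusted p = 0.020). Scrg1, expressed by mesenchymal and cartilage progenitors, had 2.38, 2.02 and 2.76 CPM (NT) and 3.52, 4.06 and 3.83 CPM (IFT88siRNA) (log2 fold change 0.67, SE 0.17, adjusted p = 0.039). Bc1, a small noncoding RNA known from neurons, had 1.64, 1.24 and 1.06 CPM (NT) and 2.13, 2.52 and 2.48 CPM (IFT88siRNA) (log2 fold change 0.85, SE 0.22, adjusted p = 0.040). In all 5 higher genes the lowest depleted library exceeded the highest NT library. Bc1, Scrg1 and Gdpd2 were each below 6 CPM throughout. Mn1 was already higher at 0 h (log2 fold change 0.40, adjusted p = 1.2e-04). So was Scrg1 (1.74, adjusted p = 0.0012), on sparse levels of 0.301 CPM in NT and 1.01 CPM in IFT88siRNA cells. Gdpd2 (0.21) and Bc1 (-0.34) did not pass the adjusted p at 0 h.

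Leaving out each of the 6 libraries in turn, 20 of the 64 genes kept their call every time: Ift88, Cxcl2, Cxcl3, Ccl20, Icam1, Tnfaip3, Mmp13, Col10a1, Eln, Pbx4, Pappa2, Igsf1, Arhgap36, Plce1, Htr2a, Serpinb2, Colec12, Mgat4a, Mn1 and Scara5. None of the 64 changed direction under any alternative. Omitting IFT88siRNA replicate 1 cost more of the 64 their call than omitting replicate 2. Among those lost without replicate 1 were Tnf, Csf3, Nos2, Mmp3, Egr1, Fos, Spry2, Ergic2, Nr3c2 and Gpr84. Omitting IFT88siRNA replicate 2 cost 15 of the 64 their call. Of these, Il6 lost it in that omission alone and kept it in the other 5, while Nos2, Col2a1, Hgf, Tnfsf18, Lamb3 and Mir155hg, the host gene of miR-155, also lost it in at least 1 other omission.

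Whether the lower genes were those that IL-1b raises was described with NT libraries that took no part in the 4 h comparison. A gene was classed by its change from 0 h to 2 h or 8 h of IL-1b, where 27.4% of genes tested changed at 2 h and 19.3% at 8 h by the same thresholds. Of 2799 genes raised by IL-1b, 35 were lower in IFT88siRNA cells at 4 h (1.25%), and 3 were higher. Of 2392 genes that IL-1b lowered, 8 were lower (0.334%), and of 9241 that did neither, 11 were (0.119%). Of 222 genes raised at 1 of the 2 times and lowered at the other, 4 were lower (1.80%), a higher share than in the raised class. Of 147 genes not tested for their response to IL-1b, 1 was lower. By the adjusted p alone the raised class held 202 lower (7.22%) and 66 higher genes (2.36%). Its median was only -0.05, against -0.0014 for all genes. With 8 h alone as the classing time, 31 of 1775 raised and 9 of 996 lowered genes were lower at 4 h.

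The called genes were then followed through the rest of the course, in libraries not shared with 4 h. Of the 59 lower genes, 43 could be tested at 0 h, 34 of them below 0, and 8 were called lower against 1.56% of all genes. At 1 h 47 of 49 were below 0 and 24 called lower (2.47% of all genes). At 2 h 51 of 54 were below 0 and 19 called lower (0.462% of all genes), and at 8 h 58 of 59 and 24 (0.613%). At 24 h 49 of 55 were below 0 and 13 were called lower (0.598%). The median of the 59 was -0.41 at 0 h, -0.65 at 1 h, -0.59 at 2 h, -0.68 at 8 h and -0.37 at 24 h.

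Single genes followed different courses. Cxcl2 had log2 fold changes of -1.41 at 1 h, -0.99 at 2 h, -1.97 at 8 h and -1.08 at 24 h. Icam1 had -1.64, -1.03, -0.80 and -0.24 at the same times, and Tnfaip3 -0.42, -0.14, -0.62 and -0.28. Of these, Icam1 at 24 h and Tnfaip3 at 2 h did not pass the adjusted p (0.10 for each). Tnfaip3 was already lower at 0 h (-0.45, adjusted p = 3.9e-05), at 31.9 CPM in NT and 23.4 CPM in IFT88siRNA cells. Mmp13 had -1.68 at 8 h and -1.75 at 24 h. Eln was lower at 4 h (-0.90) and higher at 24 h (1.18, SE 0.30, adjusted p = 0.024). At 24 h it was near the floor, at 0.362 ± 0.078 CPM in NT cells, so this value is uncertain. Scara5 was higher at 0 h already, by 1.46 on the log2 scale.

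**Figure D4:**
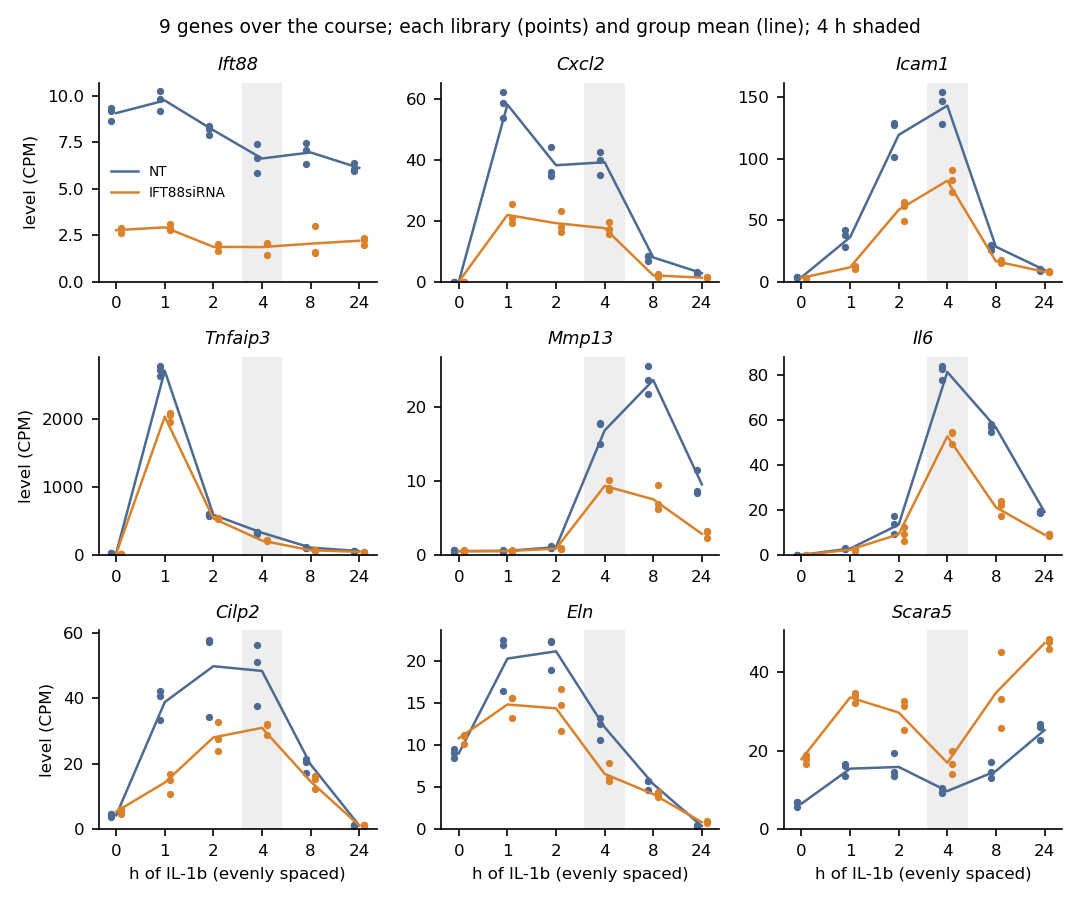
Level (CPM) of 9 called genes at 0, 1, 2, 4, 8 and 24 h of IL-1b (times evenly spaced); points are single libraries, lines group means (blue NT, orange IFT88siRNA), and 4 h is shaded. Ift88 is lower at every time and Scara5 is higher at 0 h already, while Cxcl2, Il6 and Icam1 are near 0 or low at 0 h in both groups.

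Whether a difference at 4 h was already there before IL-1b was tested directly as the change of the difference from 0 h to 4 h, over 12 libraries. In 67 of 15767 genes (0.425%) the difference changed, downwards in 57 (0.362%) and upwards in 10 (0.0634%). All 57 had a difference above 0 at 0 h and 47 had one below 0 at 4 h. The 57 were picked for a downward change in these same libraries, which favours such signs. Group means are given from NT to IFT88siRNA cells. Adamts1 went from 84.8 to 109.9 CPM at 0 h and from 111 to 86.98 CPM at 4 h (change -0.74, SE 0.07, adjusted p = 5.0e-06), and Boc from 32.3 to 41.7 CPM at 0 h and from 73.1 to 50.2 CPM at 4 h (-0.92, SE 0.10, adjusted p = 6.1e-06). For both the order of the groups reversed. Tlr2, the receptor of bacterial lipoproteins, went from 22.5 to 27.6 CPM at 0 h and from 534 to 419.6 CPM at 4 h (-0.65, SE 0.07, adjusted p = 2.0e-05), Slc7a2 from 87.9 to 109 CPM at 0 h and from 1179.7 to 947 CPM at 4 h (-0.64, SE 0.07, adjusted p = 1.5e-05) and Penk, the precursor of enkephalins, from 100.2 to 159 CPM at 0 h and from 508 to 444 CPM at 4 h (-0.87, SE 0.10, adjusted p = 1.5e-05). In others the groups differed at 0 h and were close at 4 h: Mest, an imprinted hydrolase, went from 26.6 to 51.9 CPM at 0 h and from 30.4 to 29.7 CPM at 4 h (-1.0, SE 0.10, adjusted p = 5.0e-06), Adamts9 from 8.19 to 16.6 CPM at 0 h and from 13.2 to 12.4 CPM at 4 h (-1.11, SE 0.13, adjusted p = 2.4e-05) and Parm1 from 38.2 to 59.8 CPM at 0 h and from 68.7 to 62.7 CPM at 4 h (-0.79, SE 0.09, adjusted p = 2.1e-05). Without IFT88siRNA replicate 2 at 4 h, 124 genes passed in place of 67.

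Of the 64 genes called at 4 h, 8 also passed this test, which shares their 4 h libraries. Nr3c2, the mineralocorticoid receptor, went from 3.98 to 6.57 CPM at 0 h and from 10.02 to 5.74 CPM at 4 h (-1.54, SE 0.18, adjusted p = 3.1e-05). With IL-1b it was called lower at 4 h alone, with log2 fold changes of 0.34 at 1 h, 0.30 at 2 h, -0.13 at 8 h and 0.33 at 24 h. Eln went from 9.02 to 10.8 CPM at 0 h and from 12.1 to 6.57 CPM at 4 h (-1.16, SE 0.15, adjusted p = 8.7e-05), Cilp2 from 4.22 to 5.34 CPM at 0 h and from 48.3 to 30.9 CPM at 4 h (-0.99, SE 0.20, adjusted p = 0.0080), Hgf from 1.09 to 1.61 CPM at 0 h and from 4.38 to 2.79 CPM at 4 h (-1.19, SE 0.29, adjusted p = 0.034) and Pbx4 from 1.81 to 1.84 CPM at 0 h and from 9.8 to 4.36 CPM at 4 h (-1.21, SE 0.28, adjusted p = 0.021). Veph1, Bc1 and Scara5 were the others. For the remaining genes, among them Il6, Icam1, Cxcl2 and Tnfaip3, a change in the difference was not called. Cxcl2, Cxcl3, Il6 and Tnf had at most 0.226 CPM on average in NT cells at 0 h, so that a fall in depleted cells was not detectable there at this depth.

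**Figure D5:**
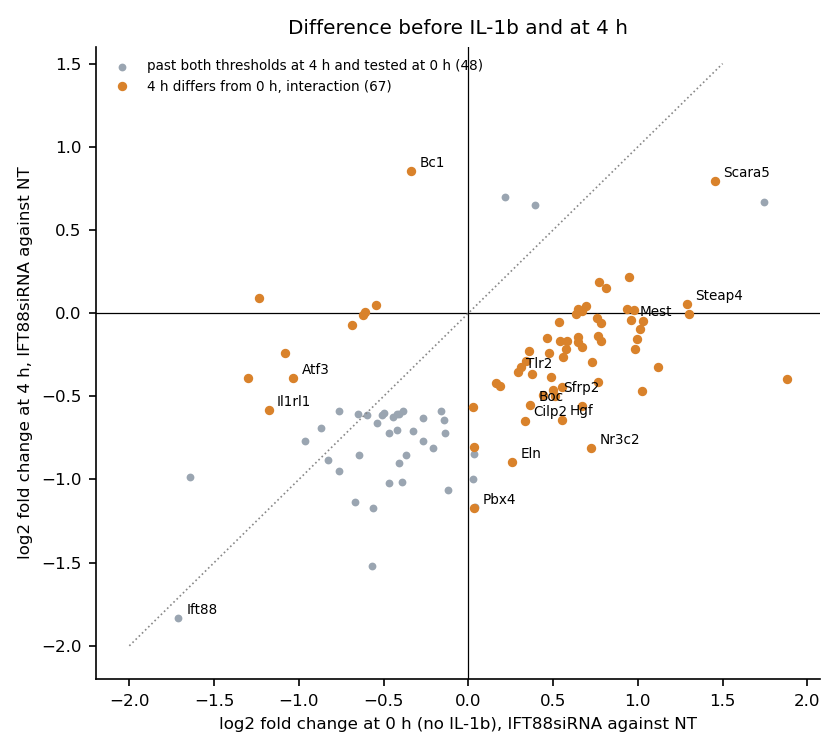
Log2 fold change of IFT88siRNA over NT at 0 h (horizontal) against that at 4 h (vertical); grey points are the 48 genes called at 4 h that could be tested at 0 h, orange points the 67 genes whose difference changed between the times, and the dotted line marks equal values. Most orange points lie right of 0 and at or below 0 on the vertical axis, and Ift88 lies close to the dotted line.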

How the data were processed

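Poly(A) RNA of the cells was sequenced as 75-base read pairs. Per the study's methods, the authors aligned reads to GRCm38 with HISAT2 2.1.0 and deposited gene counts from featureCounts (Subread 1.6.3; default parameters, which do not use strand) and TPM from Salmon 0.9.1. The siRNA dose is 50 nM in the labels and 10 nM in the methods. Counts of the 6 libraries at 4 h (19599461 to 25616856 each) entered edgeR 4.0.16 (TMM, filterByExpr, quasi-likelihood F-test) under R 4.3.3. Deposited TPM served for markers and a limma 3.58.1 alternative, and DESeq2 1.42.0 was another alternative. SE is the log2 fold change over the root of F. The interaction of 4 h and 0 h used 12 libraries, and each other time its own 6. In counts simulated from the 4 h libraries, 34% of changes set at the 1.5-fold threshold were called (66% passed the adjusted p) and 90% of 2-fold changes. Replicates differed by more than counting noise, so none was merged. The members and gene lists were chosen with earlier results of these data known. Named were Ift88, the 12 largest falls and rises with a mean of 50 counts and groups that did not overlap, called list members with up to 4 next by p, genes the study names, and the 8 smallest interaction p-values. Lists were described by counts and medians, with no set test. Some listed genes are not reported here by name.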

Additional observations from a re-analysis of the deposited data

Results flagged for a closer look

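The results given here had a difference between IFT88siRNA and NT at 4 h of IL-1b that differed from the difference at 0 h, by edgeR's quasi-likelihood test of the interaction over 12 libraries. Each value is the log2 difference at 4 h minus that at 0 h. Among the genes with the smallest p-values, the change was Mest -1.0, Adamts1 -0.74, Boc -0.92, Slc7a2 -0.64, Penk -0.87, Tlr2 -0.65, Parm1 -0.79 and Adamts9 -1.11.

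Of the genes called at 4 h, the change was downwards in Nr3c2 (-1.54), Eln (-1.16), Cilp2 (-0.99), Pbx4 (-1.21), Veph1 (-0.84), Hgf (-1.19) and Scara5 (-0.66), and upwards in Bc1 (1.19). Scara5 was higher in depleted cells at both times, and less so at 4 h. Veph1 overlaps the span of Ptx3 on the other strand, which is counted far more strongly. The counting did not use strand and overlap of their exons was not checked, so the level of Veph1 is less certain.

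Il1rl1 changed upwards (0.59), since its fall was larger at 0 h, and so did the stress-response factor Atf3 (0.64), which went from 23.9 to 11.7 CPM at 0 h and from 58.1 to 44.4 CPM at 4 h. Sox4, a factor of mesenchymal and progenitor cells, changed downwards (-0.59), from 47.9 to 81.8 CPM at 0 h and from 38.3 to 43.9 CPM at 4 h.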

How the results depend on the processing

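The count of 64 genes changed at 4 h became 67 with RLE and 64 with upper-quartile scaling, 55 with a minimum of 50 counts and 57 with the replicate number as a block (54 of them among the 64). It moved to 34 with DESeq2, all among the 64, where 29 of the 64 received no adjusted p, and to 47 without its independent filtering, an alternative chosen after seeing the data. It was 100 with any counted gene kept, 87 with all 36 libraries in the fit and 570 with the adjusted p alone. With limma on log2(TPM + pseudocount) it was 24 at a pseudocount of 1, 25 at 0.1 and 13 with no filter, where Ift88 at 4 h kept its direction with -1.35 (adjusted p = 0.113), -1.85 (0.129) and -1.35 (0.251). Leaving out single libraries gave 23 to 140 genes, 23 without IFT88siRNA replicate 1, 140 without IFT88siRNA replicate 3 and 36 without NT replicate 3, and Ift88 stayed between -1.98 and -1.59.

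The count of 67 for the interaction was 107 with any counted gene kept, 60 with the block, 302 with the adjusted p alone and 124 without IFT88siRNA replicate 2 at 4 h (chosen after seeing the data). It was 25, 162 and 30 without replicate 1, 2 and 3 of every group. The same-numbered libraries of the groups did not deviate together (correlations -0.123, -0.175 and 0.134), so the number was not taken as a pairing. The following small 4 h differences of uncalled genes changed sign: Runx2 at 4 h (0.0236, 0.0245 and 0.0236 on TPM), Adamts9 at 4 h (-0.193 to 0.00639 over omissions of libraries) and Mest at 4 h (-0.165 to 0.0609 over omissions, 0.0363 without NT replicate 1). The causes were not tested.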
